A study of Mus musculus with 9 samples.

Results

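Cathepsins are the proteases of lysosomes and lysosome-like granules, and cystatins are the small proteins that block the cysteine-type members of that group. RNA levels of 10 such genes, Ctss, Ctsb, Ctsc, Ctsd, Ctsh, Ctsl, Ctsw, Ctsz, Cst3 and Cst7, are described here in mouse effector CD8+ T cells, out of 55471 gene identifiers counted. They were selected on the control against DKO comparison of these same libraries with its results known, so their differences between the groups are a description, and where the calls of a fit across all genes include them, nothing is read from those calls. Ctss, a protease best known for trimming the invariant chain of MHC class II, averaged 81.2 CPM (counts scaled to library size) over the control libraries and 51.3 CPM over the DKO libraries. Ctsc, the aminopeptidase that activates granzymes, averaged 465.1 and 344.2 CPM. The groups did not overlap for either gene, and they overlapped for the other 8 genes. Over all tested genes, 8.71% had no overlap, 4.09% being lower in DKO.

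Cathepsins are made as inactive precursors, travel to acidic compartments and are activated there by removal of a propeptide. In cytotoxic T cells the secretory granules are modified lysosomes, in which cathepsin C removes the N-terminal dipeptide of progranzymes. Cystatin F, the product of Cst7, reaches the same compartments and restrains cathepsin C and related enzymes, whereas cystatin C, the product of Cst3, is mostly secreted. Cathepsins S, B, C, L, H, Z and W are cysteine proteases of the papain family, and cathepsin D is an aspartic protease that cystatins do not block.

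All cells carried the OT-I receptor, which recognises an ovalbumin peptide. They had been stimulated in culture through CD3 and CD28 with IL2, transduced with an shRNA construct carrying the Ametrine reporter, sorted, and moved into CD45.1 hosts (C57BL/6), which keep T cells of their own. The hosts were infected a day later with LmOVA, an ovalbumin-expressing Listeria strain, and on day 7 of infection the transferred cells were recovered by their Ametrine and CD45.2. Control cells (Bdh1-WT;shCtrl, n = 4) had intact Bdh1 and an shRNA against firefly luciferase, and DKO cells (Bdh1-KO;shOxct1, n = 5) were knocked out for Bdh1 and had an shRNA against Oxct1. The shRNA is a knockdown: control and DKO libraries held 63.2 ± 5.73 and 5.16 ± 0.370 CPM of Oxct1 (SD), and 30.5 ± 4.17 and 10.6 ± 1.24 CPM of Bdh1, whose RNA was lower but still counted. The labels give neither the age nor the sex of the mice, nor whether replicates came from separate animals, so the spread between replicates may be technical.

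Libraries held 45205993 to 59853080 counts in genes. Control replicate 1 stood apart on the first principal component of log2 CPM (-79.1, where the other libraries lay between -7.25 and 23.5), and control replicate 3 on the second (-70.2, against -5.59 to 20.2). Unmapped reads made up 16.7% of control replicate 1 and 10.3 to 12.3% of each other library. Every gene of a list of 9 T cell genes, Cd8a and Cd8b1 among them, exceeded 1 CPM on average, and the list summed to 9149 to 12504 CPM per library. Of these 9 genes, 7 had the lower mean in DKO and 1, Cd8b1, had an adjusted p under 0.05 (2.83% of all tested genes reached that): it averaged 2247 ± 279.9 CPM over the controls and 1702 ± 128.7 CPM over the DKO libraries (SD, log2 fold change -0.40, adjusted p 0.0428 in edgeR), without overlap. That call was lost on leaving out any 1 library other than control replicate 1, and with a replicate block. PolyA RNA was made into libraries with Takara Smartseq v4 and Illumina Nextera Flex reagents, and reads were counted without regard to strand. For the 10 cathepsin and cystatin genes the strand-specific counts summed to at most 1.02 times the unstranded count, so few of their reads were shared with a gene on the opposite strand.

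Promoter sequence was at hand for 7 of the 10 genes (Ctss, Ctsc, Ctsd, Ctsl, Ctsz, Cst3 and Cst7) in RefSeq on GRCm38.p6. The windows of the genes that were lower in DKO, Ctss and Ctsc, are shown with that of Ctsd, whose level was nearly equal in the groups, each from 160 bases before to 10 bases after the RefSeq start, 5′ to 3′ on the gene's strand. Capitals mark matches, on either strand, to 4 short motifs that were picked after the sequences had been seen: CACGTG (the E-box core that TFEB and USF factors recognise), GAAANNGAAA (the core of interferon-stimulated response elements), GAGGAAGT (a core of the ETS factor PU.1) and GGGCGG (the GC box). The windows lie at chr3:95526626-95526795 on the plus strand for Ctss, chr7:88277925-88278094 on the plus strand for Ctsc, and chr7:142387818-142387987 on the minus strand for Ctsd.
Ctss: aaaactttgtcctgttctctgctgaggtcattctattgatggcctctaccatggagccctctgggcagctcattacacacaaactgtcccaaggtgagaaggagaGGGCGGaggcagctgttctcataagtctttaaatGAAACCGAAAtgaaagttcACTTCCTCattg
Ctsc: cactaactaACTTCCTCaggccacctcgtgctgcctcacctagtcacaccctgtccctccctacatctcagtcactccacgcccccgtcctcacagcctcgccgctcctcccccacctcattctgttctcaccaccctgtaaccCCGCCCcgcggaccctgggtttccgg
Ctsd: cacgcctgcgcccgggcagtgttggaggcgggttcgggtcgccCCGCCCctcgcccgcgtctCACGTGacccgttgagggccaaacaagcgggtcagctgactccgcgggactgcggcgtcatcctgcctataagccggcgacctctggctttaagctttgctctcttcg

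Ctss alone among the 7 held GAAANNGAAA in its 300-base window (250 bases before the start to 50 after), with the match beginning 21 bases before the start. Among all 32851 promoter windows, 3.44% held that motif. GAGGAAGT stood on the minus strand in the windows of Ctss (first base at -2) and Ctsc (at -151), against 3.20% of all windows. CACGTG was found for Ctsd, at -245 and -98, and for Ctsl, at -236, against 7.15% of all windows. GGGCGG was present for 5 of the 7 (Cst3, Ctsc, Ctsd, Ctss and Ctsz), against 35.7% of all windows. No 2 of the 4 motifs overlapped in the sequences printed. A match describes the letters only and is not a measured binding site.

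Levels differed among the 10 genes by over 3 orders of magnitude once divided by exon length. That length is the union of all annotated exons of a gene. It can exceed the length of the transcripts present, so the order depends on it. Before division, Ctsc averaged 398.0 CPM and Cst3 93.4 CPM over the 9 libraries, with 5808 and 1266 bases of exon. Ctsw, a protease of cytotoxic lymphocytes, was highest at 519.8 CPM per kilobase over the 9 libraries (range 473.1 to 594.9). Ctsd followed at 457.1 CPM per kilobase. Ctsw exceeded Ctsd in 8 of 9 libraries, although their ranges overlapped. Cst7 was the most abundant inhibitor, at 248.3 CPM per kilobase, and its range (218.4 to 306.0) touched neither neighbour in the order.

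A middle group of 5 genes followed, with overlapping ranges. Cst3 was at 73.8, Ctsc at 68.5, Ctsb at 64.7, Ctss at 47.5 and Ctsz at 37.4 CPM per kilobase, and each range overlapped the next, down to Ctsz. Cst3 exceeded Ctsc in 6 of 9 libraries, and Ctsc exceeded Ctsb in 5 of 9. Within libraries the lower part of the order was steadier: Ctsb exceeded Ctss in 9 of 9, and Ctss exceeded Ctsz in 8 of 9. Per kilobase, Ctsc averaged 80.1 against 66.5 for Ctsb in control, and 59.3 against 63.2 in DKO. Ctsl (0.314) and Ctsh (0.0936 CPM per kilobase) were far lower than the other 8.

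**Figure D1:**
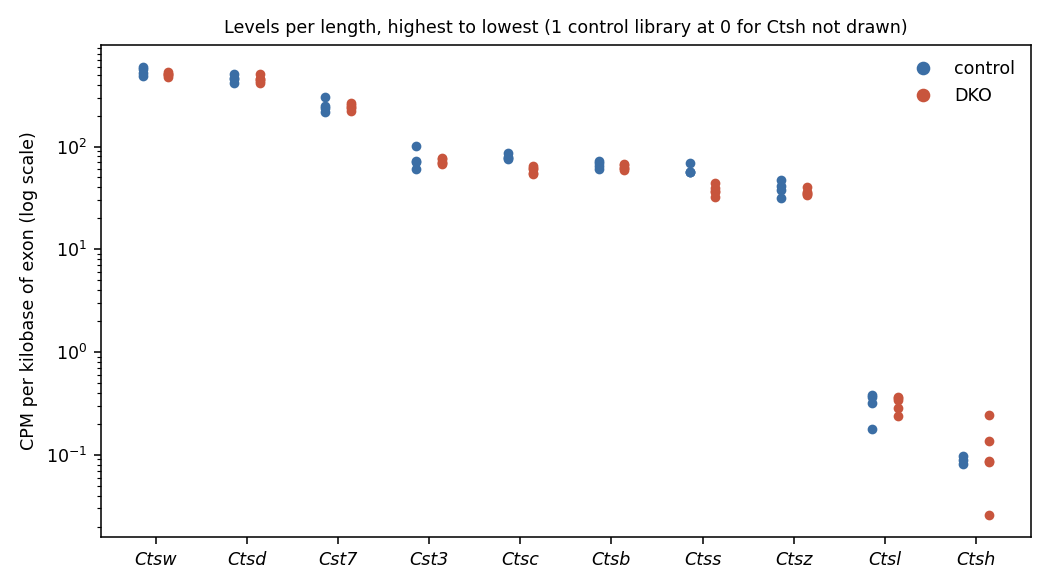
CPM per kilobase of exon (log axis) for the 10 genes in each of 9 libraries, control in blue and DKO in red, ordered by their mean. Ctsw, Ctsd and Cst7 lead, 5 genes lie between 37.4 and 73.8 on average, and Ctsl and Ctsh lie below 1.

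The first genes by role are the cysteine endopeptidases. Ctss (ENSMUSG00000038642.10, protein-coding, chr3:95526786-95556403 on the plus strand of GRCm38, 1358 bases of exon) was at 93.5, 76.3, 77.5 and 77.5 CPM in control replicates 1 to 4. In DKO replicates 1 to 5 it was at 50.3, 53.9, 49.0, 59.4 and 43.7 CPM. Control replicate 1 was the highest, the other 3 controls lay within 2 CPM of each other, and the highest DKO library was below the lowest control library. The DKO mean was 63.2% of the control mean (81.2 ± 8.22 CPM, SD, n = 4, against 51.3 ± 5.83 CPM, SD, n = 5), and the fitted log2 fold change was -0.66 (SE 0.10). Without control replicate 1 the control mean was 77.1 ± 0.685 CPM (SD, n = 3) and the log2 fold change -0.60. Counts of Ctss were 2065 to 4530 per library, so depth did not limit the value.

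Ctsb (chr14:63122462-63145923), an enzyme with both endopeptidase and exopeptidase activity, showed no such gap. Its level spanned 364.0 to 436.8 CPM over the controls and 359.0 to 411.1 CPM over the DKO libraries, and its log2 fold change was -0.07 (SE 0.08). Set against Ctsb of the same library, a ratio that does not depend on scaling between libraries, Ctss was at 0.177 to 0.223 in control and 0.106 to 0.165 in DKO. That ratio did not overlap between the groups. It reuses the Ctss counts on which the gene was selected, so it adds no separate evidence. Ctsl (chr13:64359337-64370890), the broad lysosomal endopeptidase, had only 66 to 120 counts per library, or 1.16 to 2.48 CPM over the controls and 1.56 to 2.35 CPM over the DKO libraries (log2 fold change 0.03, SE 0.24).

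The exopeptidases were led by Ctsc (ENSMUSG00000030560.17, protein-coding, chr7:88278085-88310888 on the plus strand, 5808 bases of exon). It was at 453.6, 505.9, 462.2 and 438.9 CPM in the 4 control libraries. In the 5 DKO libraries it was at 321.3, 352.6, 311.1, 360.5 and 375.7 CPM. Every DKO library was below every control library, and no library stood off from its group. The DKO mean was 74.0% of control (465.1 ± 28.8 CPM, n = 4, against 344.2 ± 27.1 CPM, n = 5, SD), with a log2 fold change of -0.43 (SE 0.08). Relative to Ctsb of the same library, Ctsc lay between 1.005 and 1.30 in control and between 0.807 and 1.004 in DKO, groups that only just failed to overlap. That ratio, too, reuses the counts on which Ctsc was selected.

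Ctsz (chr2:174427493-174439039), which removes single residues from the carboxyl end, spanned 45.4 to 67.4 CPM over the controls. All of its DKO libraries, at 49.0 to 57.6 CPM, lay inside that span (log2 fold change -0.12, SE 0.11). Ctsh (chr9:90054152-90076089), an aminopeptidase, was barely detected. Its counts were 21, 23, 0 and 21 over control replicates 1 to 4, and 55, 23, 18, 6 and 29 over DKO replicates 1 to 5. For the control library with 0 counts, a floor of 3 counts allows up to 0.0664 CPM. Summed over libraries, Ctsh came to 0.314 CPM for control (95% exact Poisson interval 0.242 to 0.400) and 0.510 CPM for DKO (0.426 to 0.605). Such intervals and floors treat reads as independent and leave out the spread between libraries. Without molecular identifiers they may understate even the counting error. The log2 fold change over libraries was 0.76 with an SE of 0.75, and DKO replicate 1 held 55 of the 131 DKO counts.

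Ctsw (chr19:5465043-5468507) averaged 1022 ± 90.6 CPM over the 4 controls and 947.9 ± 38.5 CPM over the 5 DKO libraries (SD; log2 fold change -0.11, SE 0.08). The aspartic protease Ctsd (chr7:142375911-142388038), one of the most abundant lysosomal enzymes, was at 1084, 1056, 984.1 and 1185 CPM in control. In DKO it was at 1080, 986.7, 1019, 1078 and 1198 CPM. The groups covered the same span, and the log2 fold change was -0.01 (SE 0.08).

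For the inhibitors, Cst7 (ENSMUSG00000068129.5, chr2:150570415-150578944) was at 301.8, 233.7, 215.3 and 247.0 CPM in control. In DKO it was at 237.8, 248.1, 220.5, 263.4 and 235.8 CPM, inside the control range in each library. Its log2 fold change was -0.05 (SE 0.10). Cst3 (chr2:148871722-148875692) spanned 76.5 to 128.6 CPM over the controls and 85.5 to 97.7 CPM over the DKO libraries (log2 fold change -0.08, SE 0.13). Control replicate 1 gave the top control value for 7 of the 10 genes. Against the mean of the other 3 controls it ranged from -0.05 on the log2 scale for Ctsc to 0.59 for Cst3 and 0.75 for the sparse Ctsh.

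**Figure D2:**
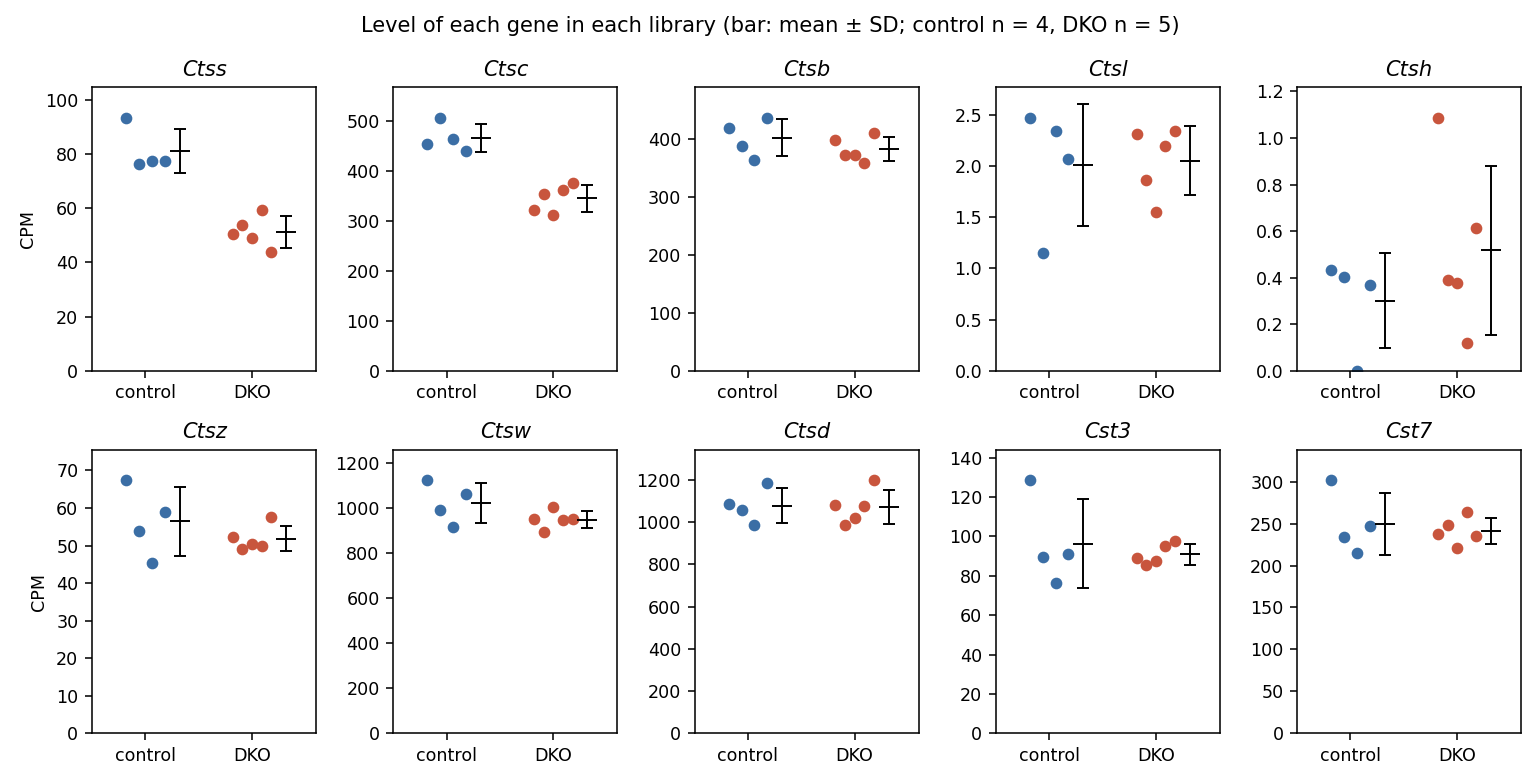
CPM of each gene in each library (points; control in blue, n = 4, and DKO in red, n = 5), with the mean and SD in black and every axis starting at 0. Ctss and Ctsc show a gap between the groups, and the other 8 genes overlap.

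A negative binomial fit across all 14918 sufficiently counted genes, which included all 10, gives the background for these values. An adjusted p of 0.05 or less (edgeR's quasi-likelihood test, Benjamini-Hochberg) was reached by 2.83% of all genes, and 1.51% were lower in DKO. Of the 10 cathepsin and cystatin genes 2 were past it, Ctss and Ctsc, both lower. Because the genes were selected on this comparison, nothing is read from that count. Ctsc was not past the threshold without DKO replicate 1 (log2 fold change -0.41) or without DKO replicate 3 (-0.40), and neither gene was past it with a replicate block. Their log2 fold changes ranged over 16 alternative settings from -0.72 to -0.60 for Ctss and from -0.47 to -0.39 for Ctsc. The small differences of Ctsd and Ctsl kept their sign in 13 of 16 settings, and those of Cst3 and Cst7 in 15 of 16. Those of Ctsb, Ctsw and Ctsz stayed negative in 16 of 16, never past the threshold. The median log2 fold change was -0.08 over the 10 genes and -0.01 over all tested genes.

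**Figure D3:**
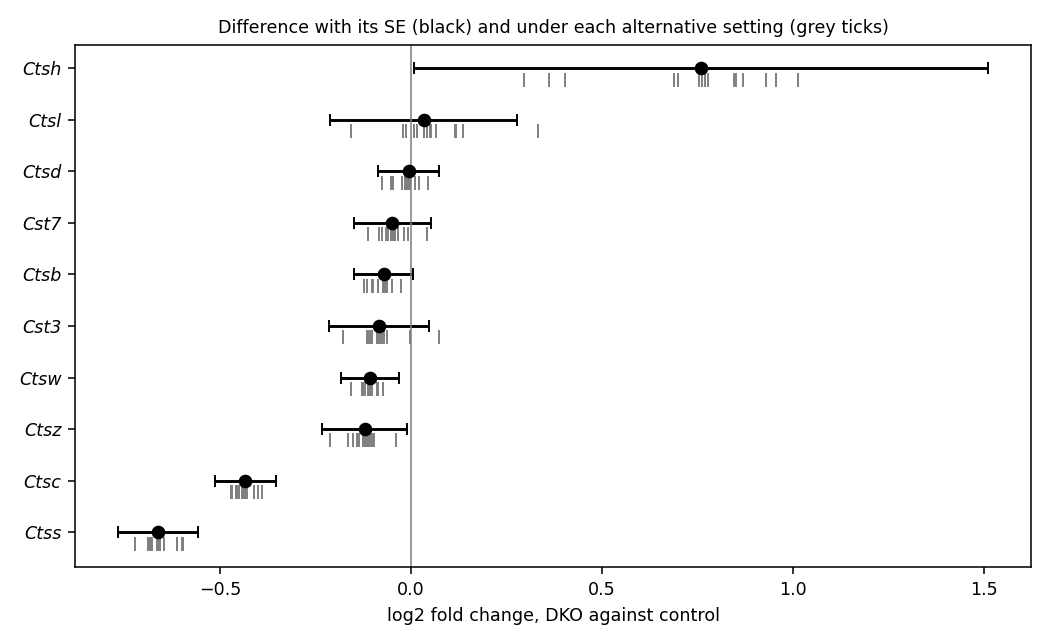
Log2 fold change of DKO against control for each gene, with its SE (black), and the same value under each alternative setting (grey ticks). Ctss (-0.66) and Ctsc (-0.43) stay below 0 throughout, as do the smaller values of Ctsb, Ctsw and Ctsz. Ctsh (0.76) has by far the widest error.

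Several of these genes, Ctss, Ctsh and Cst3 among them, are strongly expressed by macrophages, dendritic cells and B cells, so markers of such cells were read in the same libraries. In bulk RNA, fewer cells of a type and less RNA per cell cannot be told apart. A list of 16 macrophage and monocyte genes summed to 71.0 to 125.5 CPM over the controls and 58.2 to 83.4 CPM over the DKO libraries, and 8 of them exceeded 1 CPM on average. Most of that sum was Itgam, which activated CD8+ T cells also express, and Cd68, a lysosomal membrane glycoprotein. Both had the lower mean in DKO, Itgam at 58.9 ± 19.1 and 38.1 ± 5.39 CPM (SD, adjusted p 0.148 in edgeR). A split without Itgam and Cd68 was chosen after their values were seen. The remaining 14 genes summed to 8.67 to 18.1 CPM over the controls and 8.26 to 34.4 CPM over the DKO libraries. DKO replicate 1 alone gave the 34.4 CPM, and the other DKO libraries lay between 8.26 and 17.7 CPM. Of the 14 genes, 11 had the higher mean in DKO. The fit placed 7246 of all 14918 tested genes higher. Control replicate 1, the library apart on the first principal component, had the lowest sum among the controls (8.67 CPM). In that library Csf1r was at 0.495 CPM (1.72 to 3.27 CPM in the other controls), whereas C1qb was at 1.71 CPM (1.70 to 2.04 CPM). Control replicate 1 also had the most Ctss of all libraries. These values come from a single library, and a link between them was not tested. Lyz2, the macrophage lysozyme, averaged 2.43 ± 1.08 CPM over the 4 controls and 5.85 ± 4.39 CPM over the 5 DKO libraries (SD, adjusted p 0.206 in edgeR). It had the largest fitted rise of the list (log2 fold change 1.27), with 13.6 CPM in DKO replicate 1 and 2.81 to 4.96 CPM in the other DKO libraries. The 3 genes with the lower mean in DKO were Adgre1 (1.04 and 1.01 CPM), Cd14 (0.359 and 0.334 CPM) and Clec4a3 (0.384 and 0.195 CPM).

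Of the 16 genes 14 were tested, and 1, Cd68, was past the threshold (adjusted p 0.0138 in edgeR's quasi-likelihood test). Of all tested genes 2.83% were past it. Cd68 fell from 29.2 ± 4.98 CPM over the controls to 16.8 ± 2.51 CPM over the DKO libraries (SD), a log2 fold change of -0.80 (SE 0.14). It kept the threshold in all 16 alternative settings. The 8 neutrophil genes, none of them tested, summed to at most 1.35 CPM in any library. The 8 dendritic cell genes summed to 341.6 to 625.9 CPM over the controls and 401.3 to 476.4 CPM over the DKO libraries, nearly all of it Itgax, an integrin that activated CD8+ T cells also carry. The 11 B cell genes summed to 191.1 to 276.2 CPM and 198.5 to 219.8 CPM, mostly Ighm, with Pax5 at 0 in every library. None of the 3 tested dendritic cell genes or the 7 tested B cell genes was past the threshold. The 6 NK cell genes summed to 67.6 to 92.3 and 54.3 to 79.2 CPM, mostly Klrb1c (72.9 and 61.4 CPM on average). The 8 erythroid and platelet genes summed to 11.2 to 37.6 and 16.9 to 55.8 CPM. The 3 CD4+ T cell genes summed to 14.3 to 24.2 and 22.8 to 34.4 CPM, nearly all of it Cd40lg (20.4 and 29.4 CPM on average). Cd4 averaged 0.172 and 0.344 CPM. No tested gene of these lists was past the threshold either. The part of such cells in the level of Ctss was not tested.

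Genes that present antigen with cathepsin S were checked next. Of 9 genes for MHC class II and the invariant chain, 8 were tested and 0 passed the threshold in edgeR, where 1, H2-Ab1, had an unadjusted p under 0.05, as 16% of all tested genes did. In DESeq2 0 passed as well, against 7.1% of all tested genes. Cd74, the invariant chain itself, averaged 5.87 ± 2.07 CPM over the 4 controls and 10.5 ± 5.90 CPM over the 5 DKO libraries (SD), with an adjusted p of 0.335 in edgeR. H2-DMa (12.6 and 10.8 CPM, with strand-specific counts 1.80 times the unstranded count), H2-Ab1 (1.99 and 4.22 CPM) and H2-Eb1 (1.47 and 2.60 CPM) had adjusted p of 0.533, 0.274 and 0.509. Ctsh was highest in the library where this list was highest: DKO replicate 1 was at 1.09 CPM for Ctsh, 51.6 CPM for the summed list, 18.7 CPM for Cd74 and 13.6 CPM for Lyz2. Ctss in that library was at 50.3 CPM, in the middle of its group. These values come from a single library, and the source of the RNA was not tested.

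**Figure D4:**
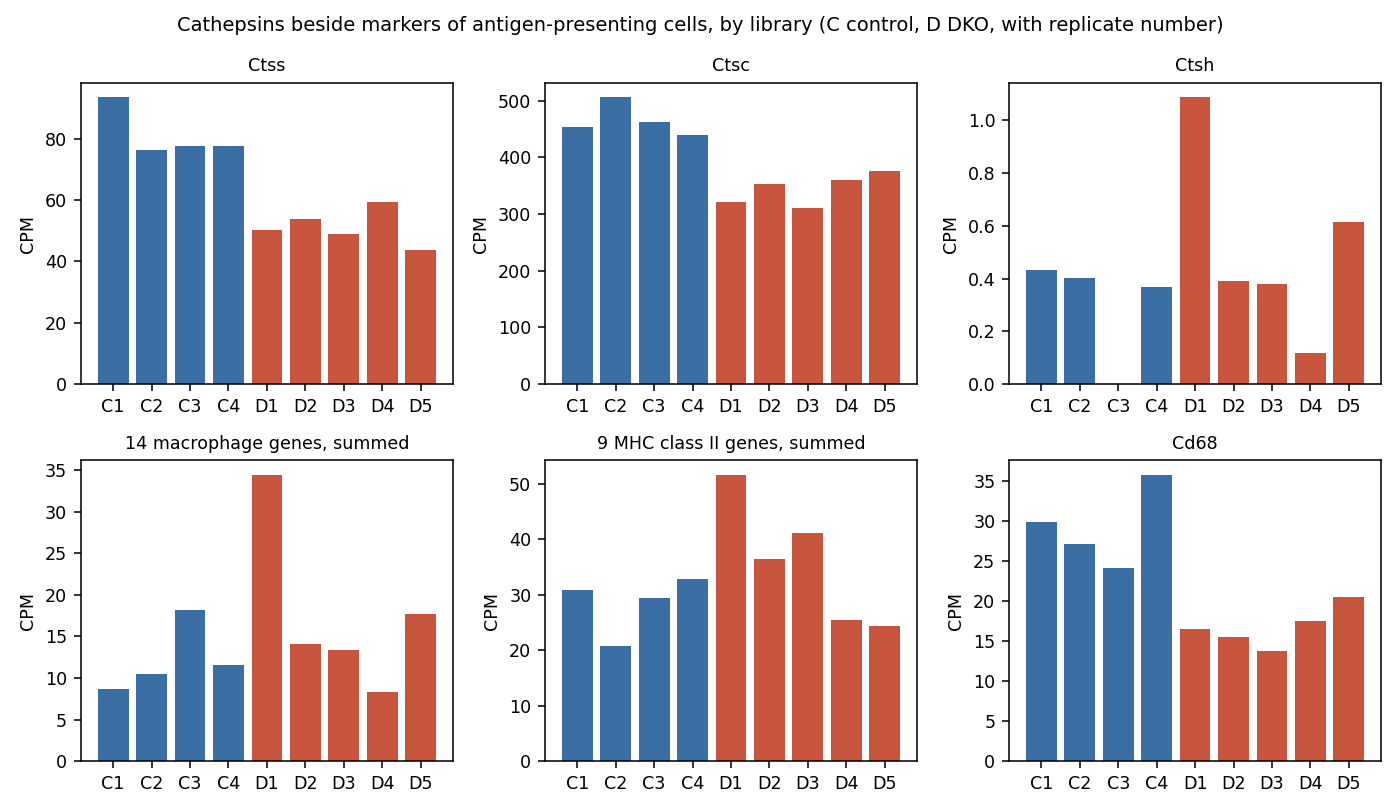
CPM by library (C1 to C4 control, D1 to D5 DKO) of Ctss, Ctsc, Ctsh, the sum of 14 macrophage and monocyte genes (the list without Cd68 and Itgam), the sum of 9 MHC class II and invariant chain genes, and Cd68. Ctss, Ctsc and Cd68 are lower in every DKO library, whereas the summed marker genes peak in D1.

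The rest of the protease family was largely silent. Of 16 further cathepsins and legumain-type enzymes, 12 stayed under 0.3 CPM in each library and 10 had no count at all, among them cathepsin G and placental forms. Ctsk, which lies 17423 bases upstream of Ctss on the same strand of chromosome 3, had 56 counts over all libraries. The 4 that were tested were Ctsa (772.0 ± 90.8 CPM over the controls and 712.9 ± 46.0 CPM over the DKO libraries, SD), the serine carboxypeptidase that shields beta-galactosidase, Ctso (72.6 ± 4.57 and 63.1 ± 1.75 CPM), the aspartic protease Ctse (40.5 ± 5.64 and 36.8 ± 2.19 CPM), and Lgmn (1.14 ± 0.431 and 1.09 ± 0.421 CPM), the asparaginyl protease that processes other cathepsins. None of the 4 passed the threshold in edgeR (adjusted p 0.202 for Ctso, 0.568 to 0.944 for the others). Ctso had an unadjusted p of 0.0188 and was the 1 gene of the 4 that DESeq2 called, with a log2 fold change of -0.20 (SE 0.07).

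Among other inhibitors, 24 of 25 listed symbols were matched, 21 of them stayed under 0.3 CPM in each library, and 19, stefins A among them, had no count. Cst6, the highest of those 21 per length, had 20 counts over all libraries. The 3 tested were Cstb, the cytosolic stefin B (50.9 ± 12.8 CPM over the controls and 51.7 ± 4.42 CPM over the DKO libraries, SD), and Ctla2a and Ctla2b, small T cell proteins that resemble the propeptide of cathepsin L. Ctla2a stood at 90.7, 63.9, 61.0 and 75.1 CPM over control replicates 1 to 4, and at 50.3, 60.6, 52.4, 60.6 and 45.6 CPM over DKO replicates 1 to 5. The lowest control library was above the highest DKO library by less than 1 CPM. Its log2 fold change of -0.43 (SE 0.13) had an adjusted p of 0.116 in edgeR, where none of the 3 passed, and an unadjusted p of 0.00681. DESeq2 called Ctla2a. Ctla2b was at 1.27 and 0.981 CPM (adjusted p 0.514).

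The granule proteins on which cathepsin C acts, with those stored beside them, were listed as 12 genes, of which 7 were tested. In edgeR 0 passed the threshold, 4 had an unadjusted p under 0.05, each with a lower mean in DKO (8.25% of all tested genes did), and the median log2 fold change was -0.32. Gzma averaged 3543 ± 694.3 CPM over the 4 controls and 2751 ± 337.2 CPM over the 5 DKO libraries (SD, adjusted p 0.179), and Gzmk at 422.3 ± 74.7 and 312.6 ± 70.7 CPM (adjusted p 0.216). Gzmb was at 1133 and 1170 CPM (adjusted p 0.898). Srgn, the proteoglycan core of the granule, was at 522.6 ± 78.1 and 419.4 ± 32.9 CPM (adjusted p 0.138 in edgeR). Prf1, the pore-forming protein, was the 1 gene of the list that DESeq2 called (629.5 ± 93.7 and 476.6 ± 26.3 CPM, adjusted p 0.0516 in edgeR). Without control replicate 1 both Prf1, lower in DKO (log2 fold change -0.48), and Gzmm, higher (0.38), were past the threshold in edgeR. With all libraries Gzmm, another granzyme, was at 39.5 ± 7.25 and 47.1 ± 3.48 CPM (adjusted p 0.330).

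A list of 44 lysosomal genes, from hydrolases to the proton pump and the transcription factors that drive them, showed little shift. Of the 41 tested, 19 were higher and 22 lower in DKO, the median log2 fold change was -0.0026, and 1 of 41 passed the threshold, a share near the 2.83% of all tested genes. DESeq2 called 2 higher (Lamp1 and Atp6v1b2) and 2 lower (Asah1 and Naglu). The gene past the threshold in edgeR was Asah1, acid ceramidase (chr8:41340197-41374773), at 56.3, 53.0, 55.2 and 53.5 CPM in control. In DKO it was at 35.6, 34.1, 33.4, 40.9 and 33.9 CPM. The groups were far apart relative to their spread, and the fall (log2 fold change -0.62, SE 0.08, adjusted p 0.00379 in edgeR) was kept without each single library. The most abundant genes of the list per length were Psap, the saposin precursor (371.0 ± 88.4 and 438.2 ± 53.9 CPM), Atp6ap1 of the proton pump (258.4 ± 8.57 and 277.4 ± 8.08 CPM), the membrane protein Lamp1 (213.1 ± 6.82 and 239.3 ± 7.26 CPM, with strand-specific counts 1.34 times the unstranded count) and M6pr, a sorting receptor for lysosomal enzymes (318.1 ± 8.72 and 314.4 ± 1.78 CPM). Their adjusted p in edgeR were 0.507, 0.480, 0.231 and 0.922. Tfeb, a transcription factor for lysosomal genes, was at 51.0 and 52.6 CPM.

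**Figure D5:**
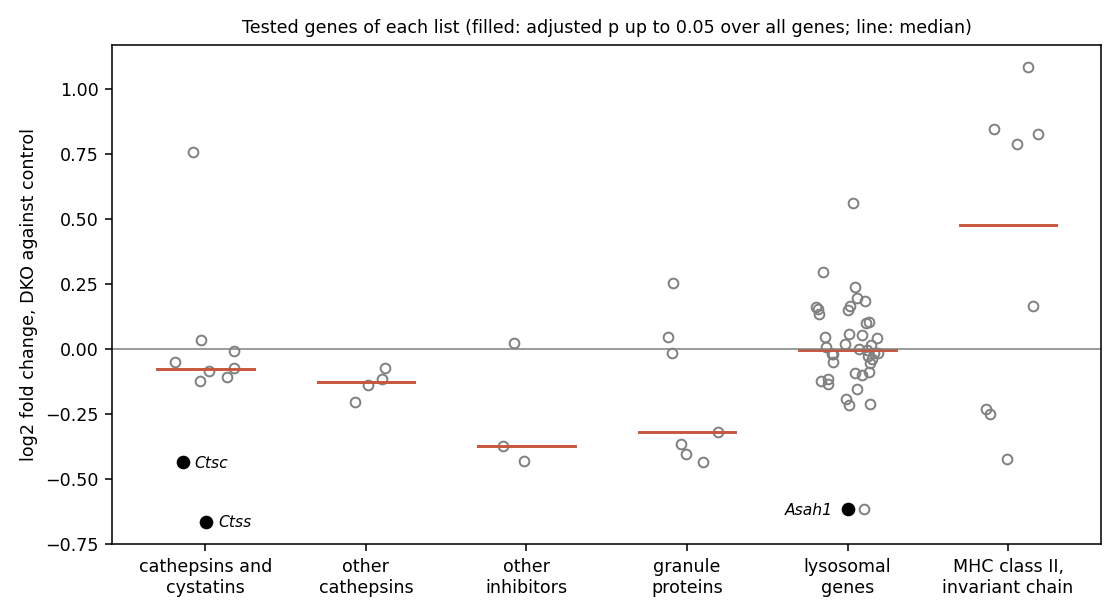
Log2 fold change of DKO against control for each tested gene of 6 lists, with the median as a line and genes past the threshold filled. Ctss and Ctsc, which were chosen on this comparison, and Asah1 are the 3 filled points.

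The genes whose pattern over the 9 libraries was closest to that of Ctss were found from log2 CPM centred on each gene's mean, by the root mean square difference. The closest 5 of all tested genes were Dram2 (0.0760), Asah1 (0.0975), Cox8a (0.105), Ebag9 (0.109) and 2310001H17Rik (0.111). Dram2, a lysosomal membrane protein, averaged 36.4 ± 2.79 CPM over the 4 controls and 24.7 ± 2.56 CPM over the 5 DKO libraries (SD). Ebag9 was at 37.3 ± 4.62 and 21.5 ± 2.07 CPM, and Cox8a, a subunit of cytochrome c oxidase, at 187.1 ± 31.7 and 111.8 ± 15.01 CPM. Dram2 lies on chromosome 3 as Ctss does, at 106547798 to 106575890, and the other 4 lie on other chromosomes. The likeness rests on 9 libraries and includes the difference between the groups on which Ctss had been chosen.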

How the data were processed

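The authors deposited raw gene counts, 1 STAR count table for each library. The submitters' processing notes name Trim Galore 0.6.0, STAR 2.7.8a and mm10. No source used here gives the annotation or read filters. The deposited unstranded counts were used, and lines that name no gene (unmapped reads 10.3 to 16.7%, multimapping 5.80 to 6.79%, no feature 4.01 to 5.20%, ambiguous 4.97 to 5.31%) were left out. Of 55471 identifiers, 55230 were matched to GENCODE M21 (GRCm38) without version, which gave symbols, coordinates and exon lengths (union of all annotated exons).

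DKO was compared with control over all 9 libraries by the robust quasi-likelihood test of edgeR 4.0.16 (R 4.3.3, TMM factors 0.987 to 1.035) on genes kept by filterByExpr, with Benjamini-Hochberg adjustment over 14918 genes at 0.05. CPM used the TMM library sizes, log2 CPM a prior count of 2, and the SE of a log2 fold change is its size over the square root of F. The members and lists were chosen with earlier results of these data known. Named genes were the members, pathway list genes past the threshold, the 4 highest per length in each list and the 5 most like Ctss. Other list genes named, such as Prf1, Gzmm, Ctsk and Tfeb, and the single markers were picked after their values were seen. Alternatives were DESeq2 size factors, the DESeq2 1.42.0 Wald test, 2 other filters, summed strand counts, a replicate block, and leaving out libraries. Fits were tested on simulated data. The single values of 1 list gene are not reported here. Tables and figures used Python 3.11.15, pandas 2.3.3 and matplotlib 3.10.9.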

Additional observations from a re-analysis of the deposited data

Results flagged for a closer look

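Among 72 tested genes of the cathepsin, cystatin and pathway lists, 144 groups of libraries were examined for 1 library far from the rest (gap to its nearest neighbour over the whole range, against Dixon's critical value of 0.829 for 4 libraries and 0.710 for 5). The gap was too wide in 8 of them, and chance alone flags about 5% of groups. Control replicate 1 accounted for 5 of the 8: it was high for Ctss (93.5 CPM, next 77.5), Npc2 (221.5 CPM, next 182.7) and Atp6v1h (153.6 CPM, next 129.4), and low for Psap (239.9 CPM, next 400.1) and Lipa (61.2 CPM, next 80.3). Control replicate 3 had 0 CPM of Ctsh, where the next control library had 0.369 CPM. DKO replicate 4 was high for Ctla2b (1.52 CPM, next 0.949). DKO replicate 5 was high for Gzmb (1596 CPM, next 1163).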

How the results depend on the processing

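The count of genes past the threshold, 422 with all libraries, was 1059 with the DESeq2 Wald test and 63 with a replicate block, and between 179 and 749 when 1 library was left out. Leaving out control replicate 1 gave 749, leaving out control replicate 4 gave 187, and the count was 179, 280, 180, 221 and 228 without DKO replicates 1 to 5. The count of pathway genes past the threshold, 1 with all libraries (Asah1), was 7 with the DESeq2 Wald test, 2 (with Prf1) both at 1 CPM in 4 libraries and with the summed strand counts, 0 with the replicate block, 4 without control replicates 1 and 3 together, and between 1 and 4 when 1 library was left out, the 4 coming without control replicate 1. Of 159 values of the 10 cathepsin and cystatin genes under alternatives, 155 stayed on their side of the threshold. The other 4 were Ctss and Ctsc with the replicate block, and Ctsc without DKO replicate 1 or 3. The cause was not tested. Same-numbered libraries did not deviate together (correlations of -0.12 to 0.01 over 4 pairs). Control replicates 1 and 3 stood apart from the rest, so these correlations cannot exclude a shared batch. The block also leaves out DKO replicate 5. Depth limited Ctsh and, less so, Ctsl.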
